A study of Mus musculus with 16 samples.

Results

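Mast cell and basophil genes were followed in bone marrow progenitors of the dendritic cell lineage. The set held 8 genes: the transcription factor Gata2, the IgE receptor chains Fcer1a and Ms4a2, and the granule proteases Mcpt8, Prss34, Cpa3, Cma1 and Gzmb. They were chosen by name, as all noncontrol probes that carry one of these symbols, which gave 8 probes, 1 per gene, of 39429 on the array. The data were 16 one-color Agilent arrays, 4 per group, of macrophage-dendritic cell progenitors (MDPs) and common dendritic cell progenitors (CDPs) sorted from the marrow of female C57/Bl6 mice. The PyMT groups carried mammary fat pad tumors of the PyMT B6 line, which derives from the MMTV-PyMT model, grown to a diameter of 1.5 cm. The Normal groups were age-matched mice without tumor. The study describes each sample as a pair of mice, so an array does not stand for a single animal, and every tumor came from the same cell line. The samples are bulk sorts, and fewer cells of a type and less RNA per cell cannot be told apart in them.

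Mast cells and basophils are granulocytes that carry the high-affinity IgE receptor and store proteases, histamine and proteoglycan in granules. The receptor has an IgE-binding alpha chain (Fcer1a), a signal-amplifying beta chain (Ms4a2) and a shared gamma chain (Fcer1g). GATA2 is required for both lineages. MCPT8 and PRSS34 are proteases of mouse basophils, carboxypeptidase A3 (Cpa3) and chymase (Cma1) are proteases of mast cells, and granzyme B (Gzmb) is best known from cytotoxic lymphocytes but is also found in mast cells. Transcripts of some of these genes can occur in early myeloid progenitors before either cell type is formed.

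The probes of Mcpt8 and Cma1 are shown because they come from the same family of serine proteases and gave opposite readings, a strong signal on every array and a signal well above background on none. Both are 60 bases long and start at positions 178 and 323 of their transcripts, and no genome position is given for them in the spot tables. Capitals mark the longest run of letters that both share, 7 bases.
Mcpt8 probe: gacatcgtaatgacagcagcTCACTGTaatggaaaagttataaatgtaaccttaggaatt
Cma1 probe: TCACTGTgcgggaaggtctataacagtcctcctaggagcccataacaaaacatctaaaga
On build mm9 the remaining probes lie at chr6:88156362-88156421 on the plus strand (Gata2), chr1:175151438-175151497 on the minus strand (Fcer1a), chr19:11691701-11691760 on the minus strand (Ms4a2), chr17:25436942-25437001 on the plus strand (Prss34), chr3:20115674-20115733 on the minus strand (Cpa3) and chr14:56877916-56877975 on the minus strand (Gzmb).

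Since Gata2 is a member, the 250 bases before each member's start were searched for a GATA motif, the letters GATA with A or T before and A or G after them, on both strands. RefSeq sequences (GRCm38.p6) were found for all 8 members, with 9 starts because Gata2 has 2. Of these 9 stretches 5 held a match (55.6%), against 26.5% of 32851 promoters searched the same way. Those of Prss34 and Fcer1a, which held a match, and of Mcpt8, a gene called below that held none, are printed with matches in capitals.
Prss34, chr17:25298144-25298393, plus strand: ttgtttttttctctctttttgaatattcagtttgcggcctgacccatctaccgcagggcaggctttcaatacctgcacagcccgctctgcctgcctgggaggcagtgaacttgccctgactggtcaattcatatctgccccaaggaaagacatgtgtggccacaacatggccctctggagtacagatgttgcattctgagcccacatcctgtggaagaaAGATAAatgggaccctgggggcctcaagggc
Fcer1a, chr1:173227230-173227479, minus strand: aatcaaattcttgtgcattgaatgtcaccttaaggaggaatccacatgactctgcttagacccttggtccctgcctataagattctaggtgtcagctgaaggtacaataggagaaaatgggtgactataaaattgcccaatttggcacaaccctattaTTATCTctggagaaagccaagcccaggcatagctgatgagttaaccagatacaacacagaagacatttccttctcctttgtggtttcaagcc
Mcpt8, chr14:56085198-56085447, minus strand: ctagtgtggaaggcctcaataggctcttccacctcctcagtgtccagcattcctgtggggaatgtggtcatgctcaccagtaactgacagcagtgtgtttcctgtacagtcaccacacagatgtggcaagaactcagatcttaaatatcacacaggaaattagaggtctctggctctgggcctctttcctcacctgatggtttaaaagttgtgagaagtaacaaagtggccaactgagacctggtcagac
The match of Prss34 began 31 bases before the start and that of Fcer1a 92 bases before it, while these letters do not occur in the Mcpt8 stretch. A match is a run of letters and not evidence of binding.

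Levels below are log2 processed signals minus the 75th percentile of the same array, so a level of 0 equals that percentile, and levels of different probes are not compared. The lowest level that counted as well above background was between -5.10 and -5.47 on the 16 arrays. Mcpt8 and Prss34 were well above background on 16 of 16 arrays, Gata2 on 13, Fcer1a on 12 and Cpa3 on 5. Ms4a2, Cma1 and Gzmb were not well above background on any array. The sorted cells gave signal for the basophil proteases and none well above background for the mast cell chymase Cma1 or the IgE receptor beta chain. This did not hold for mast cell proteases as a class. Of the further ones read below, Tpsb2, Mcpt9, Cma2 and Ctsg were well above background on every array, Tpsab1 and Mcpt2 on some, and Tpsg1, Mcpt1 and Mcpt4 on none. Where a spot's signal was too close to or under its background, the scanner software had put a small substitute value in its place, and a level or difference that rests on one has a size set by that value. A probe entered the test where 3 or 4 arrays of any group measured it well above background. That left 27433 probes, among them 4 members, Gata2, Fcer1a, Mcpt8 and Prss34. A probe was called at a Benjamini-Hochberg adjusted p under 0.05 and a fold change above 1.5 in a limma fit over the 16 arrays.

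**Figure D1:**
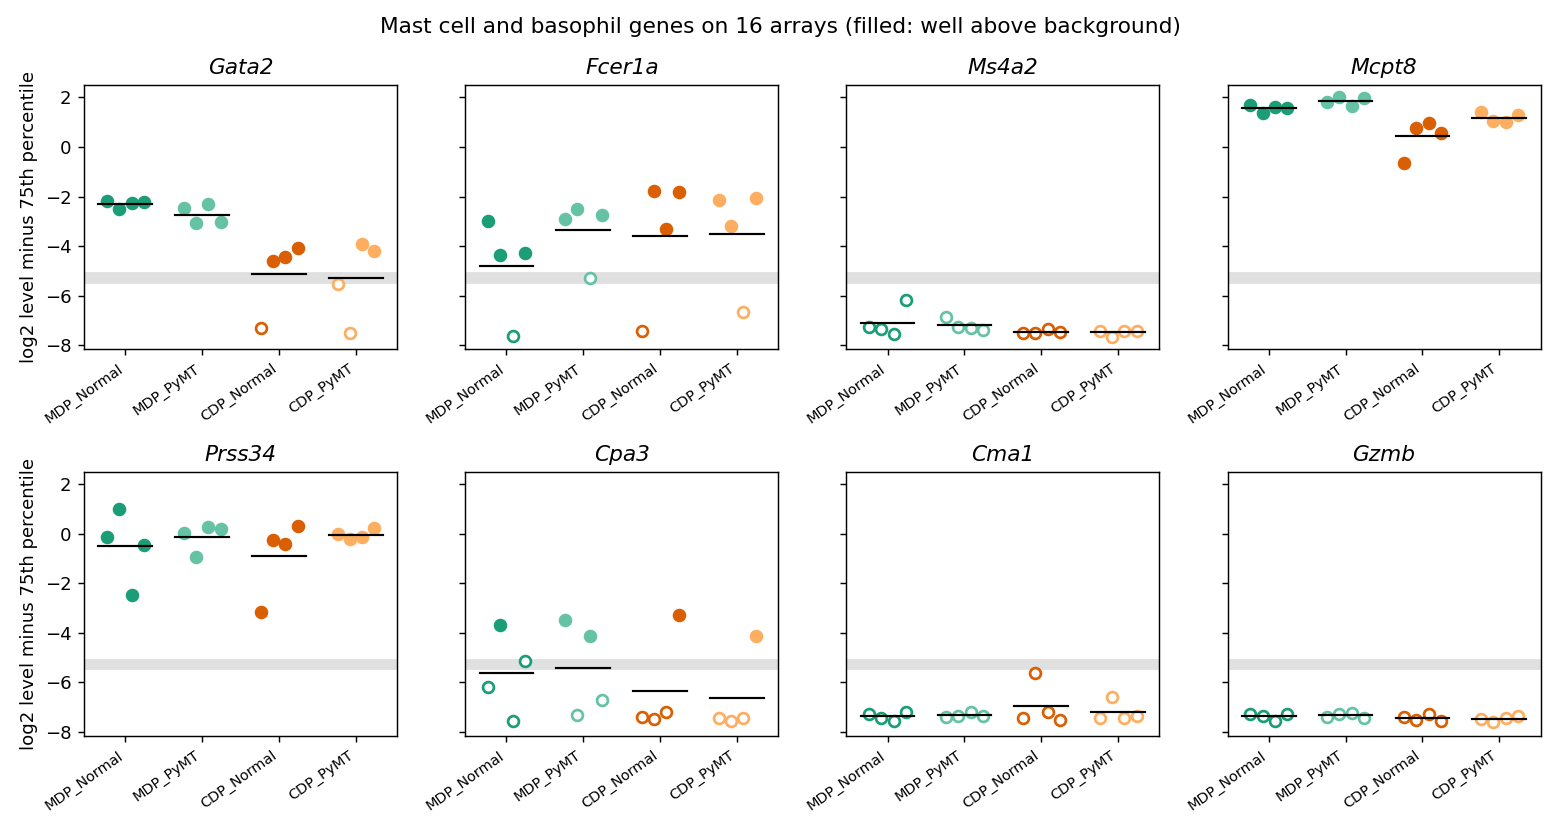
Log2 level minus the array's 75th percentile (vertical axis) of the 8 genes on the 16 arrays, grouped by progenitor and tumor state, with replicates 2 to 5 from left to right and black lines at group means. Filled points are well above background, hollow points are not, and the grey band spans the lowest levels that were (-5.10 to -5.47). Mcpt8 and Prss34 are filled throughout, and Ms4a2, Cma1 and Gzmb are hollow throughout.

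Gata2 and Mcpt8 were lower in CDPs than in MDPs of tumor-free mice, and these were the members called in any of the comparisons. For Gata2 the MDP_Normal levels were -2.19, -2.50, -2.26 and -2.22 (mean -2.29 ± 0.14, SD, n = 4). The CDP_Normal levels were -7.33, -4.58, -4.45 and -4.09 (mean -5.11 ± 1.49, SD, n = 4). The groups did not overlap, and CDP_Normal replicate 2, a substitute value, lay far under the other 3. The change was -2.82 (SE 0.74) with adjusted p = 0.0361 by limma, a nominal 7.07-fold whose size depends on the substitute value. The exact two-sided permutation test gave p = 0.0286, the smallest that 4 against 4 arrays allow.

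For Mcpt8 the MDP_Normal levels were 1.70, 1.39, 1.64 and 1.56 (mean 1.57 ± 0.13, SD, n = 4). The CDP_Normal levels were -0.63, 0.79, 0.96 and 0.59 (mean 0.42 ± 0.72, SD, n = 4). Every CDP_Normal array was under every MDP_Normal array, and replicate 2 was again the lowest. The change was -1.15 (SE 0.27), a 2.21-fold lower level with adjusted p = 0.0202 by limma, and the exact permutation p was 0.0286. Of the 4 tested members 2 were called in this comparison, with 6.1% of all tested probes called. Groups that did not overlap were seen for 13.3% of probes with a value on every array of both groups.

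Both calls leaned on the composition of the groups. Without CDP_Normal replicate 2 the change of Gata2 was -2.08 with adjusted p = 0.0944, while that of Mcpt8 was -0.80 with adjusted p = 0.0146. Leaving out MDP_Normal replicate 2, 4 or 5 ended both calls, and leaving out MDP_Normal replicate 3 or CDP_Normal replicate 3 or 4 ended that of Gata2, with adjusted p between 0.0515 and 0.0884. Neither was called in a fit of only the 8 arrays compared (adjusted p = 0.0528 and 0.112). Within the 4 slides, each of which held both groups, the difference was negative each time, from -5.11 (against the substitute value) to -1.59 for Gata2 and from -2.18 to -0.75 for Mcpt8. With slide as a block both stayed called (adjusted p = 0.0254 and 0.0135).

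In tumor-bearing mice the same 2 genes were ordered the same way and 0 of the 4 tested members were called in the limma fit, with 7.26% of all tested probes called. Both of these genes had an unadjusted p under 0.05, 0.00398 and 0.0245. Gata2 levels were -2.47, -3.08, -2.31 and -3.04 in MDP_PyMT and -5.53, -7.51, -3.90 and -4.21 in CDP_PyMT. The change was -2.56 (SE 0.74) with adjusted p = 0.0510. Mcpt8 levels were 1.81, 2.02, 1.65 and 1.99 in MDP_PyMT and 1.40, 1.05, 0.997 and 1.30 in CDP_PyMT. Its change was -0.68 (SE 0.27) with adjusted p = 0.135. Neither gene's groups overlapped, as for 14.1% of probes, and CDP_PyMT replicates 2 and 3, the latter a substitute value, were not well above background for Gata2. Without CDP_Normal replicate 2, which enters this comparison only through the shared spread and the choice of tested probes, both genes were called (adjusted p = 0.0208 and 0.0173). The difference of Gata2 was -0.81 and -1.16 on the slides that held both groups, and that of Mcpt8 -1.03 and -0.68. With slide as a block the change was -1.99 for Gata2 (adjusted p = 0.193) and -0.81 for Mcpt8 (adjusted p = 0.135). CDP_PyMT replicates 2 and 3 were both on slide 4, which held no MDP_PyMT array. On slide 1 there were MDP_PyMT arrays and no CDP_PyMT array. For the arrays on these slides, slide and progenitor cannot be told apart in this comparison.

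Fcer1a, the IgE-binding chain, split within groups rather than between them. Its levels were -2.98, -4.37, -7.64 and -4.28 in MDP_Normal and -7.43, -1.78, -3.31 and -1.84 in CDP_Normal. In the tumor-bearing groups they were -2.90, -2.52, -5.30 and -2.74 in MDP_PyMT and -2.14, -3.18, -6.65 and -2.07 in CDP_PyMT. Each group held 1 array that was not well above background, in MDP_Normal replicate 4 and CDP_Normal replicate 2 a substitute value, and all groups overlapped. CDPs differed from MDPs by 1.22 (95% interval -1.70 to 4.15, adjusted p = 0.861) in tumor-free and -0.14 (-3.07 to 2.78, adjusted p = 0.947) in tumor-bearing mice. The tumor-free value was 2.50 (adjusted p = 0.372) without CDP_Normal replicate 2 and 0.28 without MDP_Normal replicate 4, and the tumor-bearing one 0.90 without CDP_PyMT replicate 4. These intervals are wide, and a difference of several fold in either direction would not have been detectable.

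Prss34, a basophil serine protease, had levels of -0.11, 0.99, -2.48 and -0.43 in MDP_Normal and -3.16, -0.23, -0.43 and 0.29 in CDP_Normal. It had levels of 0.04, -0.93, 0.25 and 0.18 in MDP_PyMT and -0.01, -0.22, -0.14 and 0.21 in CDP_PyMT. The tumor-free groups each held 1 low array, and the groups overlapped in all comparisons. The difference between CDPs and MDPs was -0.37 (95% interval -1.92 to 1.18, adjusted p = 0.981) in tumor-free and 0.07 (-1.48 to 1.63, adjusted p = 0.951) in tumor-bearing mice. The former was 0.39 without CDP_Normal replicate 2, 0.13 without MDP_Normal replicate 3 and -1.03 without MDP_Normal replicate 4.

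Presence of a tumor moved no member past the threshold of the limma fit. In CDPs 0 of 4 tested members were called, with 1.8% of all probes called. In MDPs 0 of 4 were called, with 0.0656% of probes called, and for the difference of the tumor changes 0 of 4, with 0.0146% called. At an unadjusted p under 0.05 there was 1 member in CDPs (Mcpt8) and 0 in MDPs and for the difference. The unpaired test that the study's methods name, adjusted in the same way, also called 0 in CDPs and in MDPs. Mcpt8 in CDPs came nearest. Its CDP_PyMT levels of 1.40, 1.05, 0.997 and 1.30 were all above its CDP_Normal levels of -0.63, 0.79, 0.96 and 0.59, a change of 0.76 (SE 0.27, 1.69-fold) with adjusted p = 0.196. The share of all probes whose groups separate in this way was not counted for this comparison, so nothing is read from the separation. Only 0.04 separated the nearest arrays of the groups, and without CDP_Normal replicate 2 the change was 0.41 (adjusted p = 0.310). On the 3 slides that held both groups it was 0.04, 0.44 and 1.93, and with slide as a block 0.69 (adjusted p = 0.150). In MDPs it was 0.30 (SE 0.27, adjusted p = 0.659), and the tumor changes of the 2 progenitors differed by 0.46 (95% interval -0.36 to 1.29, adjusted p = 0.748).

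The other tested members had tumor changes in CDPs of -0.17 for Gata2 (95% interval -1.77 to 1.42), 0.08 for Fcer1a (-2.84 to 3.01) and 0.84 for Prss34 (-0.71 to 2.39). In MDPs these were -0.44 for Gata2 (-2.03 to 1.16), 1.45 for Fcer1a (-1.48 to 4.37) and 0.40 for Prss34 (-1.16 to 1.95). All of these intervals hold 0. Without CDP_Normal replicate 2 the estimates in CDPs were -0.91 for Gata2, -1.20 for Fcer1a and 0.08 for Prss34, and without CDP_PyMT replicate 3 that of Gata2 was 0.57. Without MDP_Normal replicate 4 those in MDPs were 0.51 for Fcer1a and -0.26 for Prss34. With slide as a block Prss34 was 1.23 in CDPs and 0.009 in MDPs (adjusted p = 0.309 and 0.996).

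**Figure D2:**
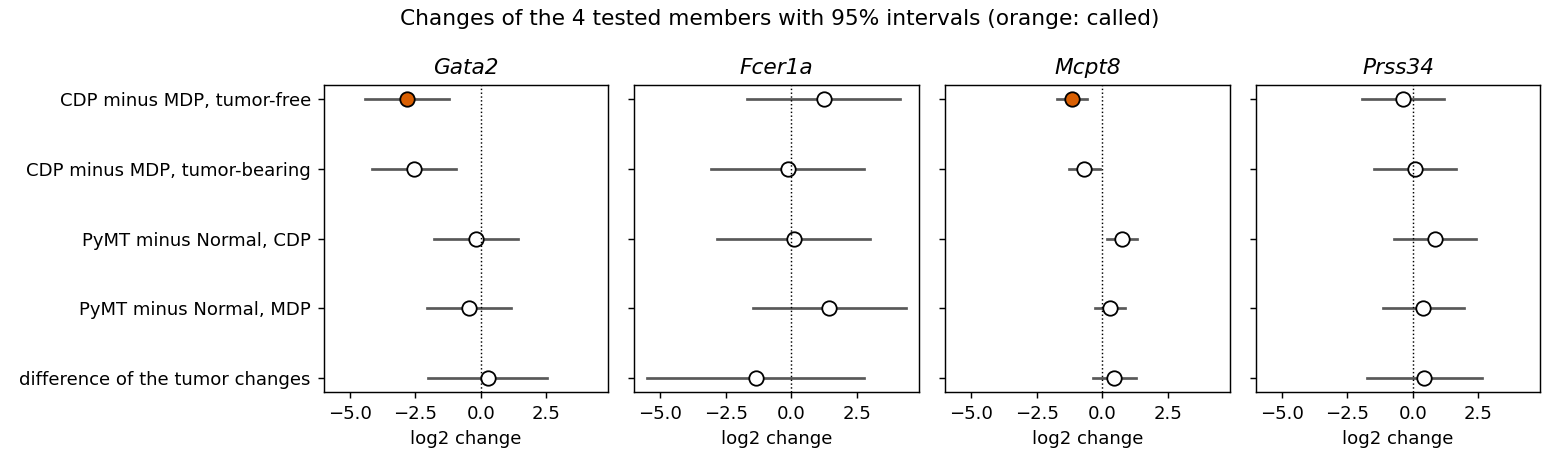
Log2 change (horizontal axis) of the 4 tested members in 5 comparisons, with 95% intervals of the limma fit and orange points for calls. Gata2 (-2.82) and Mcpt8 (-1.15) in CDPs against MDPs of tumor-free mice are orange, and the intervals of Fcer1a and Prss34 hold 0 in every comparison.

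CDP_Normal replicate 2 was the lowest array of its group for all 4 tested members. Against the mean of the other 3 arrays it was at -2.95 for Gata2, -5.12 for Fcer1a, -1.40 for Mcpt8 and -3.04 for Prss34, while the median over all tested probes was 0.13. For Gata2 and Fcer1a these differences and the shares that follow rest on substitute values. Of all tested probes 0.102%, 0.00365%, 0.814% and 0.0876% lay as low or lower on that array. Across the whole array it was not set apart, with r = 0.977 against the mean of its group's other arrays, where the 16 arrays ran from 0.930 to 0.982. MDP_Normal replicate 4 was likewise low for Fcer1a and Prss34, and not for Gata2 or Mcpt8. What set these arrays apart for these genes was not tested.

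**Figure D3:**
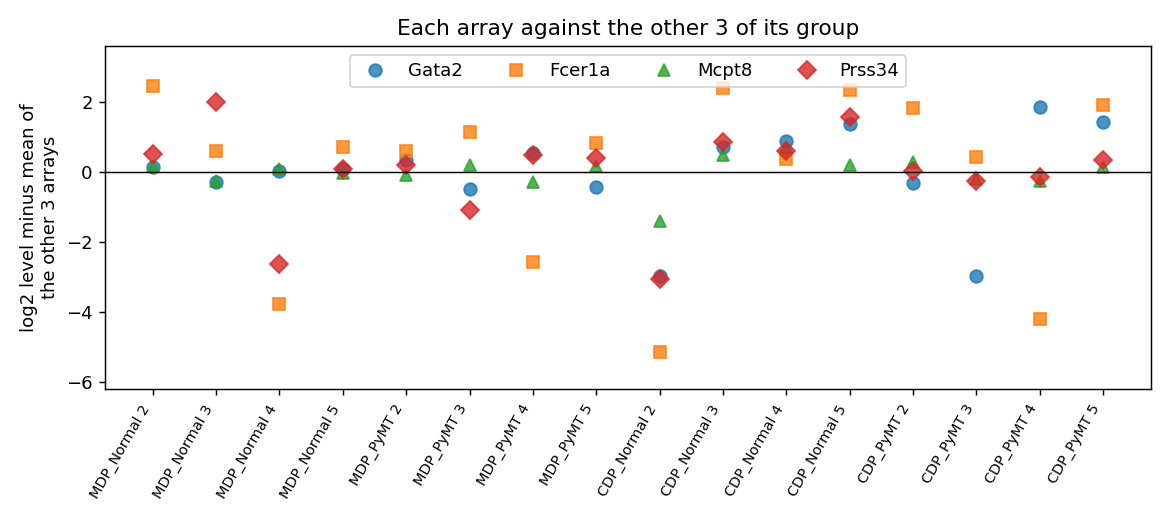
Log2 level on each array minus the mean of the other 3 arrays of its group (vertical axis) for the 4 tested members. CDP_Normal replicate 2 is low for all 4 (-2.95, -5.12, -1.40 and -3.04), and MDP_Normal replicate 4 is low for Fcer1a and Prss34.

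After removing group means, the 4 tested members formed 6 pairs over 16 arrays. The strongest was Fcer1a with Mcpt8 (Pearson r = 0.69, permutation p = 0.0236, adjusted over the 6 pairs 0.0838, Spearman rho = 0.68, p = 0.00399, adjusted 0.0239). Without the 2 arrays farthest from the median of Fcer1a, CDP_Normal replicate 2 and CDP_PyMT replicate 4, r was 0.40, so the relation rests in part on these arrays. Fcer1a with Prss34 had r = 0.68 (permutation p = 0.0350, adjusted 0.0838) and 0.57 without the same arrays. The latter still included MDP_Normal replicate 4, where Fcer1a was a substitute value (-7.64) and Prss34 was low (-2.48). For Gata2 with Mcpt8, r went from 0.57 to -0.01 without CDP_PyMT replicate 3 and CDP_Normal replicate 2.

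Cpa3, Cma1, Ms4a2 and Gzmb were too dim for a fold change. Cpa3 was well above background on MDP_Normal replicate 3 (-3.70), MDP_PyMT replicates 2 (-3.49) and 4 (-4.12), CDP_Normal replicate 5 (-3.27) and CDP_PyMT replicate 5 (-4.14). Of these 5 arrays the first 4 were on slide 1, which held only those 4 arrays, and 1 was on slide 3, and the part of the slide was not tested. Ms4a2 ranged from -7.67 to -6.19, Cma1 from -7.56 to -5.63 and Gzmb from -7.62 to -7.23, all of them not well above background.

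By likeness of pattern over the 16 arrays, the closest probes to Gata2 were those of Dtnb (r = 0.93), Adgra3 (0.88) and Sft2d3 (0.87). For Mcpt8 they were Ccm2l (0.96), Coq4 (0.89) and Nacc1 (0.88), for Fcer1a Pik3c3 (0.83), Tmem161b (0.70) and Fgfr1 (0.70), and for Prss34 Akirin1 (0.85), Pigyl (0.81) and Patl1 (0.79). These values share arrays and group differences and are descriptions.

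Further genes of mast cells and basophils, 49 in 4 lists, were read beside the members, and 37 were tested. Each gene, here and in the lists of other lineages below, was read by 1 probe. This held also where the array had more (Csf2rb2 2, Zfpm1 3). In tumor-free mice 10 differed between CDPs and MDPs (27.0%, 3 higher and 7 lower in CDPs). In tumor-bearing mice 10 did (27.0%, 3 higher and 7 lower). Of all tested probes 6.1% and 7.26% were called. These shares count every tested probe, further probes of the same gene included. The sets are therefore not alike, and no excess of calls in the lists is read from the shares. The median change over the lists was 0.14 and 0.29, against 0.02 and 0.19 over all tested probes, so the lists did not move one way. Of these genes 9 were shared, which is 90.0% of each 10, and the comparisons share no arrays but do share the estimate of the spread. Without CDP_Normal replicate 2 the tumor-free count was 8 of 36, with 1166 of all 27197 probes then tested called.

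Hdc, the histidine decarboxylase that makes histamine, had the largest difference in these lists in tumor-free mice, while in tumor-bearing mice that of Kit was larger. Its MDP_Normal levels were 2.10, 1.55, 2.15 and 2.04, and its CDP_Normal levels were -2.07, -2.94, -1.29 and -2.74. The groups were far apart, with a change of -4.22 (SE 0.30, 18.6-fold lower, adjusted p = 2.36e-06), and in tumor-bearing mice it was -3.48 (SE 0.30, adjusted p = 1.40e-05). CDP_Normal replicate 2 was in mid-range for Hdc, unlike for the members.

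Of the other mediator genes, Srgn, the proteoglycan core of granules, was lower in CDPs, with changes of -1.26 and -1.003 in tumor-free and tumor-bearing mice (adjusted p = 0.000991 and 0.00466). Ptgs1, cyclooxygenase 1, was lower, with changes of -1.29 and -1.24 (adjusted p = 0.0148 and 0.0177). Alox5ap, needed for leukotriene synthesis, was higher by 0.62 (adjusted p = 0.107) and 0.83 (adjusted p = 0.0259). In this list 3 of 9 tested genes were lower and 0 higher in tumor-free mice, and 3 lower and 1 higher in tumor-bearing mice, beside 6.1% and 7.26% of all probes.

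Among 12 tested receptor and signalling genes 3 were higher and 2 lower in CDPs of tumor-free mice, and 2 and 2 in tumor-bearing mice (all probes 6.1% and 7.26%). Cd63, a granule membrane protein, had MDP_Normal levels of 1.31, 1.65, 0.96 and 1.07 and CDP_Normal levels of -1.10, -1.53, -1.47 and -0.91. It was lower in CDPs, with a change of -2.50 (SE 0.29, adjusted p = 0.000172) and in tumor-bearing mice -2.85 (adjusted p = 4.63e-05). Itgb7, the integrin beta 7 chain, was higher by 1.87 and 2.14 (adjusted p = 4.86e-05 and 1.42e-05), and Csf2rb2, a beta chain of the IL-3 receptor, by 1.14 and 1.16 (adjusted p = 0.00612 and 0.00546). Lat2, an adaptor of the IgE receptor, was higher by 0.61 in tumor-free mice (adjusted p = 0.0320) and by 0.32 in tumor-bearing mice (adjusted p = 0.195). Fcer1g differed by 0.51 in each (adjusted p = 0.0149 and 0.0147), under the fold threshold.

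Kit, the stem cell factor receptor of mast cells, was lower in CDPs, with changes of -2.59 and -3.81 (adjusted p = 3.60e-06 and 1.06e-07) and fell with tumor in CDPs by 1.34 (adjusted p = 0.00427). KIT protein is commonly used to sort these progenitors, the gates of these samples are not given in the sources used here, and the difference of Kit between MDPs and CDPs is given as a value only. For a tumor change, 1 of the 37 genes (Kit, 2.70%) was called in CDPs and 0 in MDPs. Of all probes 1.8% were called in CDPs and 0.0656% in MDPs, with every tested probe counted. Csf1r and Flt3, commonly used in such gates too, were called in none of these comparisons (Csf1r CDP minus MDP 0.51, adjusted p = 0.131, and Flt3 0.41, adjusted p = 0.695, in tumor-free mice).

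Of 12 tested transcription factors 2 were lower in CDPs in each tumor state and 0 were higher, where 6.1% and 7.26% of all probes were called. Tal1 had changes of -1.28 and -0.95 (adjusted p = 0.00242 and 0.0152), and Meis1 by -0.96 and -1.29 (adjusted p = 0.0399 and 0.00819), with overlapping groups for Meis1 in tumor-free mice. Of 9 further granule proteases 4 were tested and 0 were called in any comparison. Mcpt9 and Ctsg were chosen after their values were seen. Mcpt9 ranged from 0.40 to 3.65 over the 16 arrays and overlapped in all groups. Ctsg, also a neutrophil gene, had a tumor change in CDPs of 0.61 (adjusted p = 0.261).

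**Figure D4:**
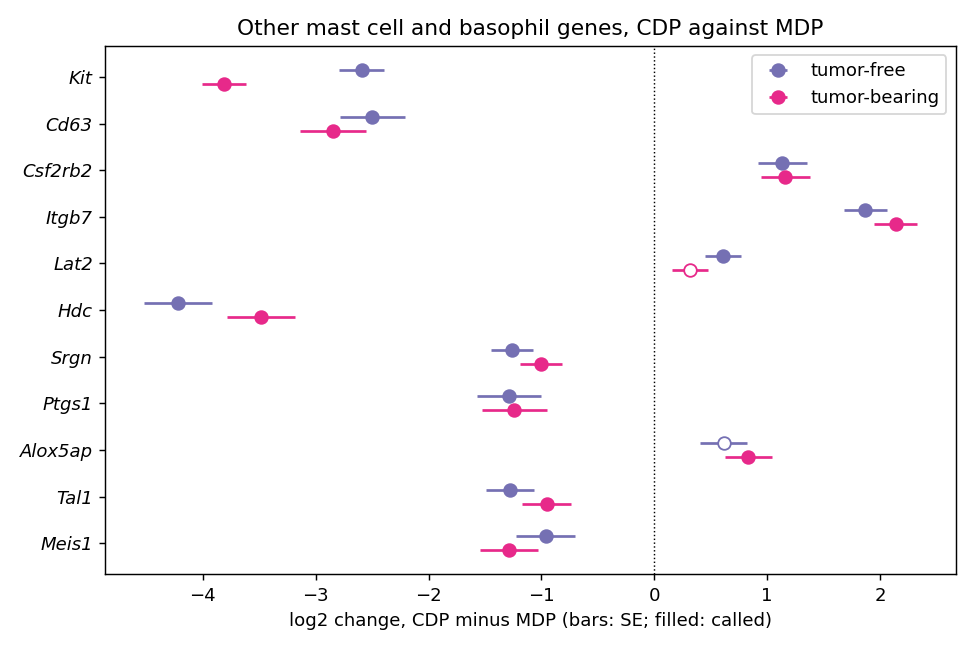
Log2 change of CDPs minus MDPs (horizontal axis) with standard errors for genes of the wider lists, in tumor-free and tumor-bearing mice, filled where called. Hdc (-4.22 and -3.48), Cd63 (-2.50 and -2.85) and Kit (-2.59 and -3.81) are lower in CDPs, and Itgb7 (1.87 and 2.14) is higher.

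Genes of other lineages differed between MDPs and CDPs as well, read beside the 6.1% and 7.26% of all probes called in tumor-free and tumor-bearing mice. Of 9 tested neutrophil markers 3 were called lower in CDPs of tumor-free mice (Elane -1.85, Prtn3 -0.85, Cebpe -1.73), while by direction alone 5 were higher and 4 lower. The summed linear level of the list, in multiples of the 75th percentile, was 71.9 to 101 in MDP_Normal and 36.3 to 50.1 in CDP_Normal. Such a sum is carried by the brightest probes, here Elane, Prtn3 and Mpo (mean levels 4.83, 4.73 and 4.82 in MDP_Normal), and does not describe the list as a whole. In CDP_PyMT the sum of the neutrophil list was 62.3 to 84.4, above every CDP_Normal array. For the tumor in CDPs 1 of the 9 markers was called by limma (Elane 1.11, adjusted p = 0.0228), with 1.8% of all probes called. By direction 6 were higher and 3 lower, the latter being Ltf (-0.45), Camp (-0.65) and Ngp (-0.25). Of 11 tested erythroid and megakaryocyte markers 3 were called lower in CDPs of tumor-free mice (Klf1 -2.77, Car1 -3.32, Car2 -2.45) and 0 higher. By direction alone the list split, with 6 higher and 5 lower. Sums were 4.48 to 8.34 in MDP_Normal and 5.82 to 12.8 in CDP_Normal, where Hba-a1, uncalled, had a mean level of 2.58 against 1.78. Klf1 entered the test only through the MDP groups, where it was high. It was well above background on 1 CDP_Normal array, so the size and call of its difference rest on dim values.

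Of 7 tested markers of plasmacytoid dendritic cells 3 were higher in CDPs of tumor-free mice (Spib 4.15, Irf7 2.80, Bst2 0.80), with sums of 14.7 to 33.8 in MDP_Normal and 20.9 to 37.9 in CDP_Normal. Spib entered the test only through CDP_Normal, where it was high. It was well above background on 2 MDP_Normal arrays, so the size and call of its difference rest on dim values. Of 9 tested markers of NK and cytotoxic T cells, the cells best known for Gzmb, 1 was called higher (Klrd1 3.81) and 1 lower (Nkg7 -3.12). By direction alone 6 of the 9 were higher and 3 lower. Sums were 15.6 to 17.5 in MDP_Normal, mostly from Nkg7 (mean level 3.74, and 0.62 in CDP_Normal), and 3.49 to 6.34 in CDP_Normal. Klrd1 entered the test only through CDP_Normal, where it was high. It was well above background on 1 MDP_Normal array, so the size and call of its difference rest on dim values. For the tumor in CDPs 2 of the 7 plasmacytoid markers were called lower by limma, where 1.8% of all probes were called. These were Spib (-3.13, adjusted p = 0.0210) and Bst2 (-0.69, adjusted p = 0.0373), and by direction 6 were lower and 1 higher. Of the 9 NK and cytotoxic T cell markers 1 was called lower (Klrd1 -4.57, adjusted p = 0.00807), with 6 higher and 3 lower by direction. Spib and Klrd1 were dim in CDP_PyMT. Of 6 tested eosinophil markers 0 were called between CDPs and MDPs without tumor and 1 with tumor (Siglecf -1.98). Their sums were 1.1 to 3.76 and 1.30 to 3.76 in the tumor-free groups, and Ccr3 was not well above background on any array. Their part in the differences of Gata2 and Mcpt8 was not tested.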

How the data were processed

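For each of the 16 arrays the authors deposited the Agilent Feature Extraction 11.5.1.1 spot table. Its processed signal is a spot intensity after background subtraction and detrending by the authors' scanner software, with no scaling between arrays. These deposited tables also give mean and background intensities of each spot and flags given as a score of 0 or 1. The authors also deposited a table of log2 values with 5 of the 8 genes, used as an alternative. Groups follow the labels.

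Control spots (1377 of 44397) were left out. Log2 signals were set against each array's 75th percentile, and spots of a probe were averaged, outlier spots excepted. A limma 3.58.1 fit (R 4.3.3) took 1 mean per group from the 16 arrays (12 residual degrees of freedom) over 27433 tested probes. The number of arrays limits the precision, and p-values measure the spread between pooled samples. Single genes also had exact permutation tests, and correlations used 100000 draws within groups. The fit was tested on simulated data.

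The genes, lists and tests were chosen with earlier results of these data known. Which spots enter the 75th percentile, and how spot flags combine into the flag of a probe, were settled after the numbers of calls were seen: 8 definitions were tried, and the one kept is the one whose counts over all probes equalled those of the earlier analysis. The definition first tried tested 27432 probes and called 491 in CDPs and 17 in MDPs for the tumor, where the kept one called 494 and 18. The same members were called under all 8.

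All 8 members were to be named, and of the wider lists the called genes, at most the 5 with the greatest change per list, plus Kit, Csf1r and Flt3. Alternatives covered background correction, scaling, filters, slide, replicate number, samples in the fit, thresholds, the test and each array left out. The deposited spot tables give probe positions on mm9.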

Additional observations from a re-analysis of the deposited data

Results flagged for a closer look

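In groups of 4 arrays a level was singled out where the gap to its nearest neighbour took up most of the group's range. This met 7 of 32 groups of the 8 genes. Chance gives about 1 in 20 where levels vary freely, which does not apply to the 6 of these 7 groups that held substitute values of the scanner software, so the number is a description. Gata2 was low on CDP_Normal replicate 2 (-7.33, a substitute value). Fcer1a was low on MDP_PyMT replicate 4 (-5.30), where it was not well above background. Cpa3 was high on CDP_Normal replicate 5 (-3.27) and on CDP_PyMT replicate 5 (-4.14), the only arrays of their groups where it was well above background. Ms4a2 was low on CDP_PyMT replicate 3 (-7.67), and Cma1 was high on CDP_Normal replicate 3 (-5.63) and on CDP_PyMT replicate 3 (-6.61), none of them well above background.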

How the results depend on the processing

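Over the alternatives, 609 of 662 values of the 4 tested members kept direction and side of the threshold, 16 lost a call, 9 gained one and 28 turned sign. The 662 values include comparisons without a call, and alternatives that differ little from each other. The tumor-free call of Gata2 was lost in 11 of 33 alternatives, and that of Mcpt8 in 5 of 34. The sign turned only for uncalled changes of Gata2, Fcer1a and Prss34, and Mcpt8 kept its direction in all alternatives. The cause was not tested. The count of 2 members lower in CDPs of tumor-free mice was 1 with no filter and 1 with a filter on all 16 arrays (Mcpt8 both times), 0 with only the groups compared and 0 with the methods' test, and ranged from 0 to 2 with each array left out. The count of 0 in tumor-bearing mice was 1 (Gata2) at an adjusted p under 0.1, with normexp background correction, with quantile normalization and with the deposited value table, and ranged from 0 to 2 with each array left out. Without CDP_Normal replicate 2 and MDP_Normal replicate 4 together, a choice made after seeing the data, the counts were 1 and 2. The 7 other definitions of the percentile and the probe flag, also tried after seeing the data, moved neither count. Each member has 1 probe, so averaging the probes of a gene changes nothing.

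The tumor change of Gata2 in CDPs was 0.006 with normexp and 0.11 with slide as a block, and the difference of Fcer1a between CDPs and MDPs of tumor-bearing mice was 0.0762 with normexp. With each array, or the pair above, left out, the tumor change in CDPs ranged from -0.91 to 0.57 for Gata2 and from -1.20 to 1.13 for Fcer1a, and in MDPs from -0.26 to 0.90 for Prss34. The difference of the tumor changes ranged from -0.48 to 1.004 for Gata2 and from -0.32 to 1.099 for Prss34. CDPs minus MDPs ranged from -1.03 to 0.39 for Prss34 in tumor-free mice, and in tumor-bearing mice from -0.79 to 0.90 for Fcer1a and from -0.20 to 0.19 for Prss34.

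Pairing by replicate number was looked for: of 24 pairs of arrays with the same number in different groups, 8 deviated together with a correlation over 0.1, and 4 of 16 arrays were closest to an array of their own number. These pairs include tumor-free against tumor-bearing arrays, which cannot share mice. The counts therefore cannot tell whether MDPs and CDPs of the same number and tumor state came from the same mice. Of 22 pairs on the same slide 19 were over 0.1. With the replicate block the tumor-free count was 2 (Gata2 -2.82, adjusted p = 0.0421, and Mcpt8 -1.15, adjusted p = 0.0462), and no other call of a member changed. The block moved the number of all probes called for the tumor in MDPs from 18 to 10.

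Over all probes, 494 called for the tumor in CDPs became 1248 with slide as a block, 56 with only the groups compared and 3 with the methods' test, and ranged from 152 to 617 with each array left out. Over the alternatives at the same threshold, the 18 in MDPs ranged from 1 to 46 and the 4 of the difference from 0 to 7. In tumor-free mice 1673 became 2925 with slide as a block and was 1117 to 1720 with each array left out. In tumor-bearing mice 1993 became 800 with only the groups compared and 608 with the methods' test, and was 1146 to 3293 with each array left out. Without the pair of arrays above the counts were 149 for the tumor in CDPs and 792 in tumor-free mice. Dim signal limits the set, since 4 of 8 members could not be tested.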
